A study of Mus musculus with 6 samples.

Results

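The interferon-inducible GTPases examined here were 10 mouse genes, Gbp2, Gbp3, Gbp5, Gbp6, Gbp7 and Gbp9 of the guanylate-binding protein (GBP) family and Irgm1, Irgm2, Igtp and Iigp1 of the immunity-related GTPase (IRG) family, out of 53801 genes quantified. They were matched by gene symbol, and all 10 were found and passed the low-count filter in all 3 comparisons. Their mRNA was measured by RNA-seq in CT26, a colon carcinoma line from BALB/c mice, in 6 libraries, with 2 libraries, replicates A and B, from each of 3 lines. The parental line was bulk, barcoded CT26 recovered from engrafted tumors. Lines B04 and B64 were each expanded from a single barcoded cell of an engrafted tumor, so that each resistant line was 1 clone. They carried different barcodes that became enriched under anti-PD1 and anti-CTLA4. The methods name no checkpoint treatment of the tumors that gave the clones, whereas the paper's discussion places their isolation after such treatment. It allows that their expression changes existed before treatment or were induced by it. Such exposure cannot be told apart from line here. All 3 groups had passed through retroviral barcoding, puromycin selection and growth in a mouse, and no interferon was added to the RPMI medium before RNA extraction, as far as the methods state. The sample labels call the material tumors, whereas the methods describe cultured lines. The comparison asked how far these GTPases, which lean toward type II interferon, moved in each resistant line, and whether they moved with Ifit1, taken as a type I reference.

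Interferons are cytokines that switch on many host defense genes. Type II interferon (IFN-γ, encoded by Ifng) acts through the receptor chains Ifngr1 and Ifngr2 and the kinases Jak1 and Jak2, and reaches its target genes through GAS elements. Type I interferons (such as the product of Ifnb1) act through a complex that includes Stat2 and Irf9 and binds ISRE elements. GBPs and IRGs are among the genes that IFN-γ induces most strongly in mouse cells, although most of them also respond to type I interferon. Their proteins collect on vacuoles that hold intracellular parasites and bacteria and disrupt them, and several GBPs promote caspase-11 and Aim2 inflammasome activation. Irgm1, Irgm2 and Igtp (also called Irgm3) are the regulatory IRGs, which sit on host membranes and keep effector IRGs such as Iigp1 (Irga6) inactive there.

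The members lie in gene clusters (mm10 assembly, positions from GENCODE M21). Gbp5, Gbp7, Gbp3 and Gbp2 occupy chromosome 3 from 142493978 to 142638008, and Gbp9 and Gbp6 lie on chromosome 5 between 105077630 and 105293698. Irgm1 is on chromosome 11 from 48861968 to 48871683. Igtp (58199556 to 58207591) and Irgm2 (58199618 to 58222782) overlap farther along the same chromosome on the same strand, so reads from their shared stretch could be assigned to either. Ifit1 is on chromosome 19 from 34640871 to 34650009. Shared sequence was counted over annotated transcripts in windows of 150 bases, the read length. No window of Gbp2, Gbp3, Gbp5, Gbp9, Irgm1 or Iigp1 occurred in another gene, under 1% of those of Irgm2 and Igtp did (0.437% and 0.739%), and for Ifit1 the share was 1.24%. Gbp6 shared 59.1% of its windows, mostly with Gm43302, an overlapping gene model, and Gbp7 shared 8.77%, mostly with the processed pseudogene Gm43802, so their counts depend on how reads were divided.

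Promoter sequence is shown because GAS and ISRE elements are where the type II and type I pathways act on these genes. RefSeq promoters (GRCm38.p6, the same assembly as mm10), from 250 bases before to 50 after the start, were found for 7 of the 10 members, all but Gbp6, Gbp9 and Iigp1. They were searched on both strands for a GAS-like motif (TTCNNNGAA, which reads the same on both strands) and an ISRE-like motif (GAAA, any 2 bases, GAAA). The 170 bases before each start are printed 5′ to 3′ on the gene's strand, with matches in capitals. The members with both motifs come first.
Gbp5, chr3:142496764-142496933 (+): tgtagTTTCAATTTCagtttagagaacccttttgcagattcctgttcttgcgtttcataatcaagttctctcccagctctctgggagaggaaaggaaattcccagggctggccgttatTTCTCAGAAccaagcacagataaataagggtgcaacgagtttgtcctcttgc
Gbp7, chr3:142530166-142530335 (+): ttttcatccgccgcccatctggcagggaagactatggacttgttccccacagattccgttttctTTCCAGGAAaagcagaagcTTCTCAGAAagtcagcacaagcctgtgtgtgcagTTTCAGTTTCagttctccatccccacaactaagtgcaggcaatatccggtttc
Irgm2, chr11:58214807-58214976 (+): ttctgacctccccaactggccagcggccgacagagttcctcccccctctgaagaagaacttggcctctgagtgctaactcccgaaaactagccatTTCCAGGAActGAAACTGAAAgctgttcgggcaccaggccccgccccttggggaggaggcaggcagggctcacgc
Igtp, chr11:58199386-58199555 (+): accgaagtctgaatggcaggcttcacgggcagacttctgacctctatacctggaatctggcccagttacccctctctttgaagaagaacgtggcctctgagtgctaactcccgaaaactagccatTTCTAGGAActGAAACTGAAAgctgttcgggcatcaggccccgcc
Gbp2, chr3:142620493-142620662 (+): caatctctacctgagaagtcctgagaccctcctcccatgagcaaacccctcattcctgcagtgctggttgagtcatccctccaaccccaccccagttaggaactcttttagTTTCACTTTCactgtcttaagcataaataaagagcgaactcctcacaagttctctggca
Gbp3, chr3:142559874-142560043 (+): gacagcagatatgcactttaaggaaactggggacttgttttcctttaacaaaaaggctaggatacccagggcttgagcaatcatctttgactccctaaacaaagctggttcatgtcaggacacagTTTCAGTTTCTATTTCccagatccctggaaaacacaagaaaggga
Irgm1, chr11:48871421-48871590 (-): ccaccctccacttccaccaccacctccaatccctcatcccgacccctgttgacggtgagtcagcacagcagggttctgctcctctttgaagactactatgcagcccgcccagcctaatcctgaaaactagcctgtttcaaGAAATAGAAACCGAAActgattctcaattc
Ifit1, chr19:34640719-34640888 (+): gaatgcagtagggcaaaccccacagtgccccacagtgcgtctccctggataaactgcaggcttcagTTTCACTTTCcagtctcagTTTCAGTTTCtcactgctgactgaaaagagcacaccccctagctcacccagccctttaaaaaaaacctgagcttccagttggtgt
The 7 members have 8 promoters in the table, since Gbp3 has a second start, whose window held neither motif. An ISRE-like match was present in 7 of the 8, against 3.44% of all 32851 promoters in the table. A GAS-like match was present in 4 of the 8 (Gbp5, Gbp7, Irgm2 and Igtp), against 8.3% of all promoters, and those 4 held both, against 0.454%. The promoter of Gbp5 held another GAS-like match 245 bases before the start, outside the stretch printed. In Irgm2 and Igtp the GAS-like match began 75 and 45 bases before the start and was followed after 2 bases by the ISRE-like match, at 64 and 34 bases before it. Ifit1 held 2 ISRE-like matches and no GAS-like match. Of 21 type I-leaning genes with a promoter, Ifit1 included, 12 held the ISRE-like motif and 4 the GAS-like motif. A match describes letters in a window and not a bound site.

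**Figure D1:**
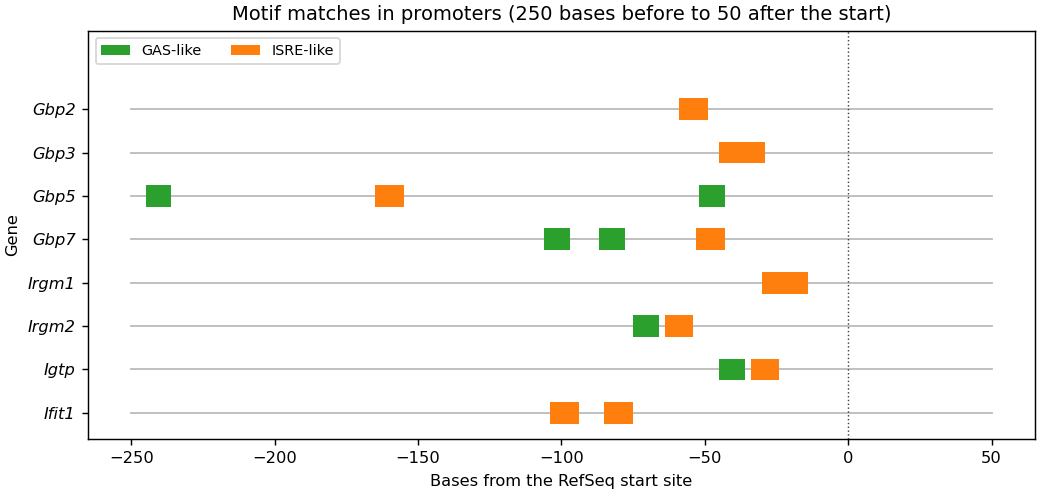
Positions of GAS-like (green) and ISRE-like (orange) matches in 7 member promoters and that of Ifit1, in bases from the RefSeq start site, with each grey line spanning 250 bases before to 50 after the start. ISRE-like matches lie in all 8 promoters drawn, and GAS-like matches in those of Gbp5, Gbp7, Irgm2 and Igtp.

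Library totals ranged from 19409204 to 23472012 expected counts. Replicates of a line differed by more than counting noise, with a chi-square per degree of freedom between 5.09 and 6.81, against 24.83 to 38.69 between lines. Fragment length, estimated as length minus effective length, followed the lines in part. It was 277.1 and 276.4 bases in parental replicates A and B, 271.6 and 225.1 in those of B04 and 220.7 and 246.1 in those of B64. Both parental libraries and B04 replicate A were classed as long. B04 replicate B and both B64 libraries were classed as short, although B64 replicate B lay between. The 5 erythroid markers summed to 2.31 and 2.54 TPM in B64 and to between 0.09 and 1.94 TPM in the other libraries, and none was called. The pan-leukocyte and endothelial markers were at or near 0. Ptprc, the pan-leukocyte marker, did not exceed 1.1 normalized counts in any library, and endothelial markers summed to at most 0.1 TPM. The 15 leukocyte markers had a summed level of 10.61 to 12.31 TPM in the 4 libraries of the parental line and B04, and of 36.7 and 40.31 TPM in B64, with 8 to 10 of them at 0 in each library. Nearly all of that sum was Cd68, a lysosomal protein of macrophages that other cells also express, at 39.62 and 36.06 TPM in B64 against 10.08 to 11.99 TPM elsewhere. Epcam and Cdh1, which are only part of the epithelial markers listed, stayed at or below 0.06 TPM although CT26 is a carcinoma line. The mesenchymal gene Vim was at 2041.67 TPM or more in every library. The list of 8 epithelial and mesenchymal markers also held the keratin genes Krt8 and Krt18, whose values are not reported here. Of the 8, 6 passed the low-count filter, so an absence of epithelial expression cannot be read from Epcam and Cdh1. In bulk RNA, fewer cells of a kind and less RNA per cell cannot be told apart.

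Levels within a library were compared per transcript length, as TPM. Irgm1 was the most abundant member in every line, at 27.4 ± 3.03 TPM in the parental line, 21.52 ± 0.21 in B04 and 30.34 ± 0.69 in B64 (SD, n = 2). In the parental line it was followed by Irgm2 (8.9 ± 1.15 TPM), Gbp3 (6.52 ± 1.2), Igtp (6.32 ± 1.0), Gbp7 (4.26 ± 1.07) and Gbp2 (2.67 ± 0.45). Gbp9, Gbp5, Gbp6 and Iigp1 were all below 1 TPM there, at 0.66, 0.62, 0.34 and 0.24 on average. The ranges of neighbors in this order overlapped for Gbp3 and Igtp and among the 4 lowest genes, and did not overlap elsewhere. The order of the 6 upper genes changed little between lines. In B04, Gbp3 (7.24 ± 0.79 TPM) and Irgm2 (7.02 ± 0.56) overlapped in second place and Gbp7 (5.65 ± 0.3) stood above Igtp (5.05 ± 0.1), and in B64 Irgm2 (14.26 ± 0.74) and Gbp3 (14.17 ± 1.15) overlapped. Iigp1, an effector IRG, moved from the tenth place in the parental line to the seventh in B04, where its range overlapped that of Gbp5. Together the 10 members came to 63.6 and 52.2 TPM in parental replicates A and B, 52.7 and 50.9 TPM in those of B04 and 88.6 and 87.0 TPM in those of B64, so the B64 libraries lay above the other 4.

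The members were then compared between lines as normalized read counts, that is, expected counts divided by a size factor for each library. Genes were called in the DESeq2 Wald test where the p-value, adjusted over all genes tested (Benjamini-Hochberg), was under 0.05. In line B64, 4 of the 6 GBPs (Gbp2, Gbp3, Gbp6 and Gbp7) and 3 of the 4 IRGs (Irgm2, Igtp and Iigp1) were upregulated relative to the parental line. In all, 7 of the 10 members were higher, none was lower and 3 did not pass, against 16.3% of all 13218 genes tested that were called in either direction and 8.87% that were higher (7.45% were lower). The median log2 fold change of the members was 0.86, against -0.002 for all genes tested. All 10 members had both B64 libraries above both parental libraries, which was so for 30.5% of all genes tested.

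Among the GBPs, Gbp7 had the smallest adjusted p. It was at 331.0 and 251.6 normalized counts in the parental libraries, against 623.0 and 609.8 in B64, a 2.12-fold increase (log2 fold change 1.08, SE 0.16, adjusted p = 1.42e-09). Gbp3 was at 314.8 and 255.3 in the parental libraries, against 596.9 and 554.1 in B64 (2.02-fold, log2 fold change 1.01, SE 0.17, adjusted p = 1.04e-07). For these 2 genes the groups lay far apart, and in every one of the 20 settings tried the difference passed the threshold. Gbp2, a GBP that is recruited to bacterial and parasite vacuoles, was at 129.7 and 106.6 in the parental libraries, against 192.6 and 230.2 in B64 (1.79-fold, log2 fold change 0.84, SE 0.25, adjusted p = 0.00808). Gbp6 was scarce, at 27.7 and 7.5 normalized counts in the parental libraries, against 74.8 and 52.6 in B64 (log2 fold change 1.86, SE 0.59, adjusted p = 0.0129). The parental libraries of Gbp6 differed from each other by a larger ratio than those of any other member. The calls of Gbp2 and Gbp6 held in 13 of 20 settings each. Summing Gbp6 with Gbp10 and Gm43302, with which it shares sequence, gave 1.37 (adjusted p = 4.5e-05). Gbp5, which promotes inflammasome assembly, was at 24.8 and 37.4 counts in the parental libraries, against 48.7 and 65.2 in B64, and Gbp9 at 47.7 and 37.4 against 68.0 and 86.2. Their log2 fold changes of 0.87 (95% interval -0.07 to 1.81) and 0.86 (0.04 to 1.67) were as large as that of Gbp2 but did not pass (adjusted p = 0.239 and 0.161). At these counts the intervals reach from near no change to beyond the estimate of Gbp3.

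The IRGs were less uniform. Irgm2 was at 602.9 and 523.7 normalized counts in the parental libraries, against 910.7 and 857.9 in B64 (1.57-fold, log2 fold change 0.65, SE 0.13, adjusted p = 1.88e-05). Igtp was at 235.6 and 196.4 against 397.6 and 334.3 (1.69-fold, log2 fold change 0.76, SE 0.20, adjusted p = 0.0015). Irgm1, the most abundant member and a regulatory IRG like the preceding pair, was at 1067.5 and 958.6 in the parental libraries, against 1116.8 and 1088.2 in B64. Its B64 libraries lay just above the parental ones, and its log2 fold change of 0.12 (95% interval -0.09 to 0.33, adjusted p = 0.53) bounded any rise well below the estimates of Irgm2 and Igtp. Iigp1 (chromosome 18, 60376027 to 60392634) was at 16.2 and 9.4 in the parental libraries, against 40.8 and 35.7 in B64 (2.99-fold, log2 fold change 1.58, SE 0.58, adjusted p = 0.0412). This call rested on few reads and held in 6 of 20 settings.

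The parental line and B64 differed in fragment length as well, and the effects cannot be told apart except through B04. With fragment-length class as a block, 2 members (Gbp3 and Gbp7) remained past the threshold, when 2.64% of all genes were called. The log2 fold changes of the 5 others under this block were 1.15 for Gbp2, 2.26 for Gbp6, 0.83 for Irgm2, 0.78 for Igtp and 1.46 for Iigp1, with DESeq2 adjusted p between 0.0694 for Irgm2 and 0.992 for Iigp1. Cd68 was also higher in B64, while Ptprc and the endothelial markers were at or near 0, and its part in the members' change was not tested. The count of 7 also depended on individual libraries: 3 members passed when parental replicate B was left out (10.5% of genes called), 3 without B64 replicate A (8.07%) and 4 when replicate B of B64 was the one left out (8.54%).

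**Figure D2:**
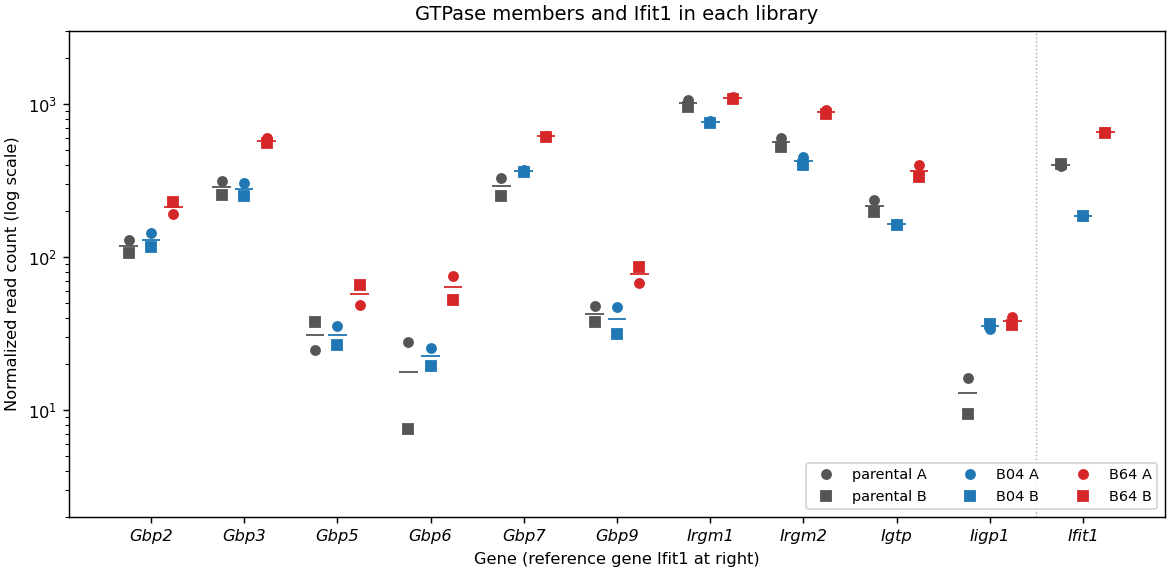
Normalized read counts (log scale) of the 10 members and Ifit1 in each library, with circles for replicate A, squares for replicate B and short lines for the group mean (n = 2). For all 10 members both B64 libraries lie above both parental libraries, whereas the B04 libraries lie below the parental ones for Irgm1, Irgm2, Igtp and Ifit1.

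In line B04 no GBP was called, the regulatory IRGs Irgm1 and Irgm2 were lower and the effector Iigp1 was higher. Of the 10 members, 1 was higher and 2 were lower, against 24.1% of genes tested called in this comparison (11.2% higher and 12.9% lower), so the count of members called, 3 of 10, was close to the background. The median log2 fold change of the members was -0.02. Irgm1 was at 778.9 and 758.3 normalized counts in B04, below both parental libraries (0.76-fold, log2 fold change -0.4, SE 0.11, adjusted p = 0.00162). Irgm2 was at 450.6 and 398.0, also below both (0.75-fold, -0.41, SE 0.14, adjusted p = 0.0146). Igtp was at 165.1 and 162.9, below both parental libraries as well, with a similar estimate that did not pass (-0.4, 95% interval -0.8 to 0.0, adjusted p = 0.158). These 3 regulatory IRGs thus had like estimates at unlike depths. Iigp1 went the other way and was at 33.7 and 36.6 in B04, above both parental libraries (2.75-fold, 1.46, SE 0.58, adjusted p = 0.0486), a call that held in 6 of 20 settings.

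None of the 6 GBPs passed in B04. Gbp7 was at 373.0 and 357.3, above both parental libraries (log2 fold change 0.33, 95% interval 0.0 to 0.65, adjusted p = 0.148). Gbp3 was at 302.8 and 250.4 (-0.04, -0.38 to 0.3) and Gbp2 at 144.1 and 116.0 (0.14, -0.36 to 0.64). The intervals of Gbp3 and Gbp2 in B04 lay below the estimates of the same genes in B64. Gbp5 (35.6 and 26.5), Gbp6 (25.5 and 19.3) and Gbp9 (47.4 and 31.6) overlapped their parental libraries, with intervals that span over 1.5 on the log2 scale. The 3 calls in B04 were sensitive to the setting: edgeR's quasi-likelihood test called 5 members (Gbp7 and Iigp1 higher, Irgm1, Irgm2 and Igtp lower, against 34.6% of its genes), and none passed with the fragment-length block (12.8% of genes called), with limma on TPM (12.8% and 13.0% at pseudocounts of 1 and 0.1), when parental replicate A was left out (15.2%) or when B04 replicate B was (14.0%). Among the long-fragment libraries alone, the log2 differences of B04 replicate A from the parental mean were -0.38 for Irgm1, -0.32 for Irgm2, -0.38 for Igtp and 1.38 for Iigp1.

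**Figure D3:**
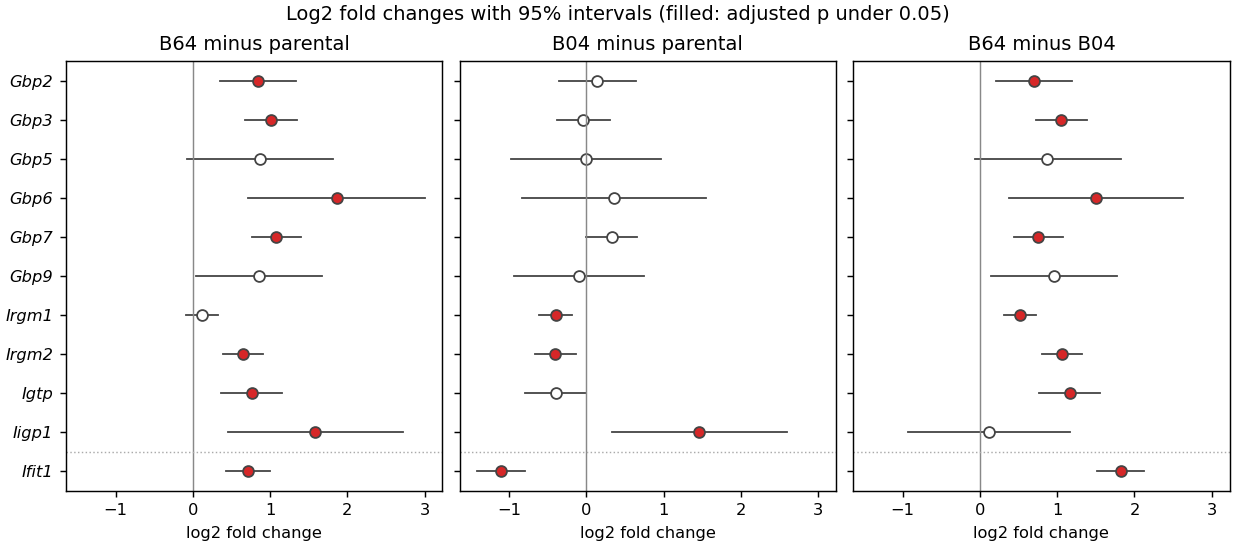
Log2 fold changes with 95% intervals for the 10 members and Ifit1 in the 3 comparisons, with filled circles at an adjusted p under 0.05 (DESeq2). In B64 minus parental all members lie above 0, in B04 minus parental Irgm1 and Irgm2 are filled below 0 and Iigp1 above, and in B64 minus B04 only Gbp5, Gbp9 and Iigp1 are open.

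Compared directly, B64 was above B04 for 7 of the 10 members, none was lower, and 24.3% of 12855 genes tested were called (13.1% higher and 11.1% lower). The median log2 difference of the members was 0.92, against 0.0 for all genes tested, and 9 members had both B64 libraries above both B04 libraries, as 33.7% of genes did. This comparison shares its B64 libraries with the first comparison and its B04 libraries with the second. Igtp differed 2.23-fold (log2 difference 1.16, SE 0.20, adjusted p = 1.66e-07), Irgm2 2.08-fold (1.06, SE 0.13, adjusted p = 1.26e-13) and Gbp3 2.08-fold (1.05, SE 0.17, adjusted p = 1.5e-08). Irgm1 differed 1.43-fold (0.52, SE 0.11, adjusted p = 1.64e-05), with 778.9 and 758.3 counts in B04 and 1116.8 and 1088.2 in B64. These 4 genes passed in all 20 settings. Gbp7 (0.75, SE 0.16, adjusted p = 3.07e-05), Gbp6 (1.5, adjusted p = 0.0399) and Gbp2 (0.7, adjusted p = 0.0253) also passed, the last pair in 9 of 20 settings each. Gbp5 (0.87, 95% interval -0.07 to 1.82) and Gbp9 (0.96, 0.14 to 1.78) did not pass. Iigp1 was the member for which the libraries of the resistant lines overlapped, with a log2 difference of 0.12 (95% interval -0.93 to 1.17). Within the short-fragment class, B64 was compared with B04 replicate B, although B64 replicate B had longer fragments than the rest of that class. All 10 members had a log2 difference above 0, between 0.06 for Iigp1 and 1.65 for Gbp6, and the median was 1.1.

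Ifit1, the type I reference, encodes a protein that binds foreign RNA lacking host-type caps. It was at 394.0 and 405.9 normalized counts in parental replicates A and B, 186.1 and 185.3 in those of B04 and 658.1 and 651.8 in those of B64. Its replicates were nearly equal and the 3 lines were well separated: Ifit1 rose in B64 (log2 fold change 0.71, SE 0.15, adjusted p = 2.23e-05) and fell in B04 (-1.11, SE 0.16, adjusted p = 7.79e-11). With the fragment-length block the log2 fold change in B64 was 0.72 and no longer passed the threshold (DESeq2 adjusted p = 0.403). Ifit1 was higher in B64 by about as much as the median member, and fell in B04, where 2 members were called lower.

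The log2 ratio of each member to Ifit1, with 1 added to each normalized count, was therefore computed in each library. The median ratio over the members was -1.17 and -1.48 in parental replicates A and B, -0.27 and -0.43 in those of B04 and -1.25 and -1.23 in those of B64. B64 fell within the parental range and B04 stood above it, with a difference of 0.98 for B04 (1.97-fold) and 0.09 for B64, each minus the parental line. For all 10 members the B04 ratios lay above both parental ratios, with differences between 0.70 for Irgm2 and 2.54 for Iigp1. Ifit1 itself fell in B04 (log2 fold change -1.11), so a gene that did not change would also have a higher ratio there. The median log2 fold change in B04 was -0.02 for the members and 0.002 for all genes tested. In B64, 4 ratios lay above the parental ones (Gbp3, Gbp6, Gbp7 and Iigp1), that of Irgm1 lay below them, at 0.76 and 0.74 against 1.44 and 1.24, and 5 overlapped. With 2 libraries against 2 the exact two-sided permutation test cannot give a p below 0.333, which was its value for the median in B04, and the 10 ratios share the Ifit1 count of each library.

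The size of this contrast depended on the reference gene. Ifit1 fell more in B04 than most type I-leaning genes, whose median log2 fold change was -0.36. With the median of the 28 type I-leaning genes as the reference instead, the difference of the median member ratio was 0.02 for B04 minus the parental line, 0.25 for B64 minus the parental line, and 0.23 for B64 minus B04, where Ifit1 as the reference gave -0.89. These are differences of median levels. The median log2 fold changes in B04 were -0.02 for the members and -0.36 for the type I-leaning genes. For B64 minus B04 they were 0.92 and 1.1. Whether the excess over Ifit1 in B04 extended to the type I-leaning genes as a group thus depended on the summary used.

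**Figure D4:**
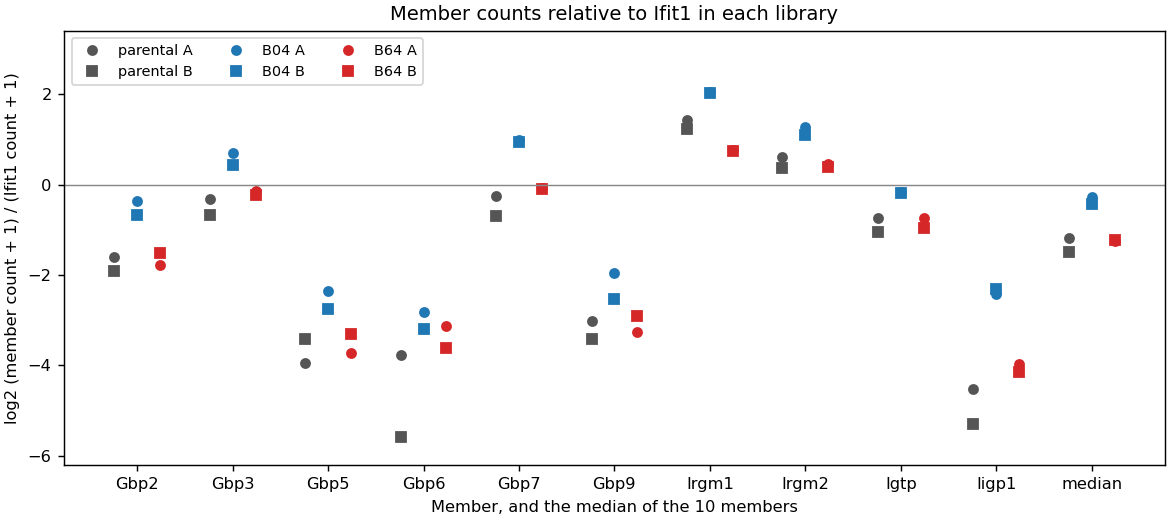
Log2 ratio of each member's normalized count to that of Ifit1 (1 added to both) in each library, and the median of the 10 members at the right, with circles for replicate A and squares for replicate B. The B04 libraries, in which Ifit1 itself was lower, lie above the parental libraries for all 10 members. The B64 median lies within the parental range.

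Other interferon-inducible GTPases were a list of 15 further GBP, IRG and very large GTPase genes, of which 10 were tested. In B64, 4 were higher and 1 lower, against 8.87% and 7.45% of all genes tested. Gbp2b (also called Gbp1), which lies within the chromosome 3 cluster, was at 78.2 and 59.9 normalized counts in the parental libraries, against 123.5 and 139.8 in B64 (log2 fold change 0.93, adjusted p = 0.0186). Tgtp1, one of the near-identical genes for Irgb6, was at 51.5 and 74.8 against 130.3 and 125.1 (1.01, adjusted p = 0.0114), while its copy Tgtp2 was at 175.5 and 181.4 against 200.5 and 187.1 (0.12, adjusted p = 0.812). These copies shared 64.9% and 68.4% of their windows, so the split between them is uncertain. Gm12250, which encodes the effector Irgb10, rose from 5.7 and 0.9 counts to 19.3 and 26.3 (2.78, SE 1.04, adjusted p = 0.0459), and Gm4951 from 34.3 and 24.3 to 70.2 and 66.2 (1.22, adjusted p = 0.0327). Gbp4, at 33.4 and 16.8 against 47.6 and 65.2, did not pass (1.17, adjusted p = 0.112).

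The IRG genes 9930111J21Rik1 and 9930111J21Rik2 were higher in B04, and 9930111J21Rik2 was lower in B64. The latter was at 572.4 and 497.6 normalized counts in parental replicates A and B, 847.3 and 811.2 in those of B04 and 284.3 and 286.0 in those of B64. It rose in B04 (log2 fold change 0.63, SE 0.13, adjusted p = 2.74e-05) and fell in B64 (-0.91, SE 0.14, adjusted p = 1.07e-08), with no overlap between any of the 3 lines. 9930111J21Rik1 was at 186.0 and 118.8 in the parental libraries, rose to 374.9 and 287.0 in B04 (1.12, adjusted p = 4.65e-05) and was at 152.9 and 145.1 in B64 (-0.03, adjusted p = 0.968). They share 64.5% and 44.3% of their windows with other genes, mostly each other. Among these related GTPases, the promoters of Tgtp1, Tgtp2 and Gm12250 held both motifs and that of Gbp2b an ISRE-like match. Of these genes, Tgtp2 was not called in B64 and the others were higher. The members Gbp5 and Irgm1 also held matches and were not called in B64. A link between motif matches and changes was not tested. The promoter of 9930111J21Rik1 held an ISRE-like match only after the start, at base 27. That of 9930111J21Rik2, in which no match was found, is shown for comparison with the members.
9930111J21Rik2, chr11:49051243-49051412 (-): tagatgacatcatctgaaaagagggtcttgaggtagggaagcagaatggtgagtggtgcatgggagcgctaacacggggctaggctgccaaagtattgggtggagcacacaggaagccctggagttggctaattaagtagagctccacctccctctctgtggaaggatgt
The relatives of GBPs and IRGs that are not known as interferon-inducible, the atlastins Atl1, Atl2 and Atl3 and the IRG-like gene Irgq, were not called in B64, where Atl2 and Atl3 had log2 fold changes of -0.07 and 0.04. In B04, Atl3 was higher (0.26, adjusted p = 0.00259).

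Upstream of the GTPases, Ifng, which encodes IFN-γ, had 0 counts in all 6 libraries, and Ifnb1 had at most 1.1 normalized counts, in B64. A count of 0 allows up to 3 counts per library. The receptor genes Ifngr1 and Ifngr2 and the kinase gene Jak1 were not called in any comparison, with log2 fold changes between -0.24 and 0.13. Irf1, an interferon-inducible transcription factor that GBP genes depend on, was at 337.7 and 376.0 in parental replicates A and B, 558.2 and 630.1 in those of B04 and 410.0 and 385.8 in those of B64. It rose in B04 (0.73, SE 0.15, adjusted p = 1.17e-05) and was not called in B64 (0.16, adjusted p = 0.596). Its part in the changes of the GBPs was not tested. Nlrc5 (0.62, adjusted p = 0.00248) and Batf2 (1.0, adjusted p = 0.0106) rose in B64, and Jak2 differed between the resistant lines alone (B64 minus B04 0.3, adjusted p = 0.00808).

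Type II-leaning targets outside the GTPase family split differently from the members. Of 15 tested, 8 were higher in B64 and 7 were higher in B04, none was lower in either line, and the medians were 0.6 and 0.41. Of all genes tested, 8.87% were higher in B64 and 11.2% were higher in B04. Those called in B04 included genes of antigen processing. Serping1, the C1 inhibitor gene, rose from 26.7 and 28.1 counts to 207.9 and 217.8 in B04 and 165.4 and 218.7 in B64 (log2 fold changes 2.96 and 2.81, adjusted p = 2.7e-20 and 5.85e-18). The immunoproteasome gene Psmb8 rose in both lines (B04 1.39, adjusted p = 1.22e-16, and B64 0.9, adjusted p = 6.87e-07). Cd74, the MHC class II invariant chain gene, rose in B04 (2.0, SE 0.31, adjusted p = 6.24e-09) and was not called in B64 (0.65, adjusted p = 0.19), and the peptide transporter gene Tap1 rose in both (0.36 in B04 and 0.6 in B64, adjusted p = 0.00246 and 6.67e-08). Between the resistant lines, 2 of 14 were higher in B64 and 3 were lower, against 13.1% and 11.1% of all genes tested. Those lower were Cd74 (-1.35), Irf1 (-0.58) and Psmb8 (-0.48). Those higher were Nlrc5 (0.92) and Irf8 (1.23), the latter named to complete this count. The other 9 were not called, and both counts were close to the shares of all genes tested. The GTPase members that differed were all higher in B64.

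Type I-leaning targets were mostly higher in B64 and in part lower in B04. Of 28 tested, 25 were higher in B64 (median log2 fold change 0.7) and 26 were higher in B64 than in B04 (median 1.1). In B04, 13 were lower and none was higher. Of all genes tested, 8.87% were higher in B64, 13.1% were higher in B64 than in B04, and 12.9% were lower in B04. Irf7, a regulator of type I responses, was at 1194.3 and 1217.7 normalized counts in parental replicates A and B, 959.5 and 853.0 in those of B04 and 2892.8 and 2695.7 in those of B64. Usp18, which restrains type I receptor signaling, fell in B04 (-1.15, adjusted p = 6.36e-23) and rose in B64 (0.56, adjusted p = 5.08e-06), as did Isg15 (-0.67 and 0.52, adjusted p = 2.85e-15 and 8.15e-10). Irgm1 and Irgm2 were lower in B04 like these genes, and no GBP was called lower there.

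**Figure D5:**
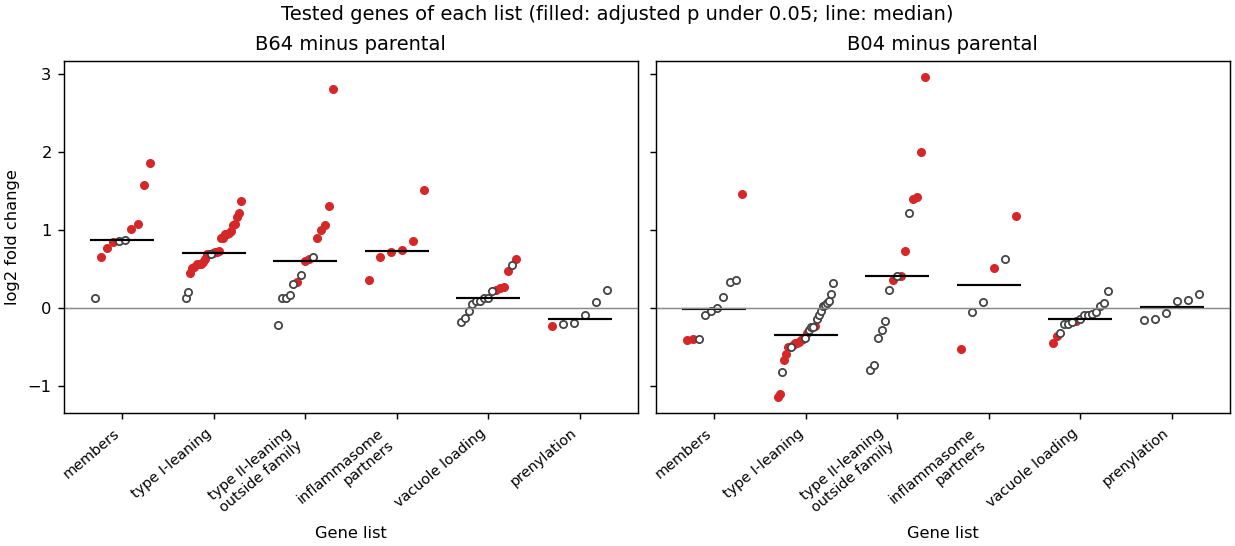
Log2 fold changes of the tested genes of 6 lists in B64 and in B04, each minus the parental line, with filled circles at an adjusted p under 0.05 and black lines at list medians. Members and type I-leaning targets lie above 0 in B64, and in B04 the type I-leaning targets lie mostly below 0 while type II-leaning targets outside the family reach the highest values.

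Genes whose products act with the GTPases were described as 3 lists. All 6 inflammasome partners tested were higher in B64, with a median log2 fold change of 0.73, when 8.87% of all genes tested were higher. The DNA sensor gene Aim2 was at 384.4 and 332.0 normalized counts in parental replicates A and B, 245.3 and 250.4 in those of B04 and 650.1 and 644.5 in those of B64, so that it rose in B64 (0.85, adjusted p = 4.75e-07) and fell in B04 (-0.53, adjusted p = 0.00498), as Ifit1 did. Casp4, which encodes the LPS-sensing caspase-11, rose in B64 (0.72, adjusted p = 0.00391) and was at the parental level in B04 (0.07, adjusted p = 0.883), and Nlrp3 rose in B64 (1.51, adjusted p = 7.97e-06). Gsdmd, which encodes the pore-forming gasdermin D, was higher in both lines and more so in B04 (1.18, adjusted p = 5.1e-20) than in B64 (0.74, adjusted p = 9.52e-08; B64 minus B04 -0.44, adjusted p = 0.00183). Casp1 rose in both lines (0.51 and 0.65, adjusted p = 0.0414 and 0.00935) and Ninj1 in B64 (0.36, adjusted p = 0.0021). The adaptor gene Pycard, on which most inflammasomes rely, did not exceed 4.8 normalized counts in any library, and Il18 had 0 counts in every library.

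Among 15 genes that serve the loading of GTPases onto vacuoles, mostly of the ubiquitin-like conjugation machinery of autophagy, 5 were higher in B64 and 3 were lower in B04. The shares of all genes tested were 8.87% and 12.9%, so the count in B04 was close to the background. Gabarapl1 rose in B64 (log2 fold change 0.62, adjusted p = 4.36e-13), and the autophagy receptor gene Sqstm1 rose in B64 (0.47, adjusted p = 1.17e-17) and fell in B04 (-0.17, adjusted p = 0.00527). Prenylation anchors several GBPs in membranes, and of 6 prenylation genes 1 was called lower in B64 (Zmpste24, -0.23, adjusted p = 0.0434) and none in B04. With 7.45% of all genes tested lower in B64, 1 call among 6 genes was close to the background.

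Few genes flanking the clusters were called. Of 50 neighbors, 10 for each of 5 clusters, 3 were higher and 1 lower in B64, and 6 were higher and 4 lower in B04, shares below the 16.3% and 24.1% of all genes tested. The median log2 fold change of the neighbors in B64 was between -0.07 and 0.08 for each cluster. A neighbor of the chromosome 5 cluster and one of Irgm1 are named here, chosen after their values were seen. Spp1, the osteopontin gene, rose in B64 (0.7, adjusted p = 1.68e-48), and Ifi47 beside Irgm1 is itself an IRG gene that the lists had left out. Ifi47 was called higher in B04 (0.4, adjusted p = 0.039) and not in B64 (-0.04, adjusted p = 0.928).

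The genes most like the members over the 6 libraries were found by the correlation of log2 normalized counts with the mean standardized profile of the 10 members, among 10468 genes with a mean of at least 50 counts. The 10 nearest were Ezr, Sde2, Bcas3, Clcn5, Parp9, Zfp710, Apool, Abcc4, Col4a2 and Spats2l, with Pearson r between 0.99 and 0.996. With the median profile of the members instead, 5 of these were among the 10 nearest. The mean profile was highest in B64 and similar in the parental line and B04. A rise in B64 and little change in B04 were thus fixed by the choice and are no result about these genes. None of the 10 was called in B04, and 7 were higher in B64, with log2 fold changes between 0.15 for Ezr and 1.51 for Spats2l. Of these, Parp9 and Spats2l are also known as interferon-inducible. With 6 libraries in 3 groups a high r is common, and 155 candidates exceeded 0.95. Ifit1 had an r of 0.775, and Irf1 had -0.355.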

How the data were processed

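RNA was sequenced as paired reads from 6 libraries, 2 per line. Per the methods, the authors aligned reads to mm10 with STAR and quantified genes with RSEM (RSEM version and annotation release are not given in the sources used here). The deposited tables hold expected counts, in which RSEM divides ambiguous reads among genes, and TPM, in which the authors' run of RSEM divided each count by effective length and scaled to the library total. Effective length gave the fragment-length class. The deposited FPKM values were not used. Of 53801 identifiers, 53620 (99.7%) matched GENCODE M21.

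Groups came from the sample titles. DESeq2, the study's tool, was applied to the rounded expected counts (version 1.42.0 in R 4.3.3), with all 6 libraries in one fit on line, independent filtering and no shrinkage. Nothing in the labels shows separate cultures beyond duplicates, so p-values measure the spread between these libraries, which may be technical. TPM was used to order levels within a library, and it shifts with fragment length. Totals of 19409204 to 23472012 counts leave the scarce members (Gbp5, Gbp6, Gbp9 and Iigp1) with wide intervals, and the floor of 3 counts covers counting error only. Members and lists were chosen with earlier results of these data known. The genes named are all members and Ifit1, the related GTPases with a mean of at least 10 normalized counts, the type II receptor and signaling genes, at most 2 genes with the smallest adjusted p per further list and comparison (4 for inflammasome partners, where the rule allowed 4 throughout), Ifng, Ifnb1, Casp4 and Irf7, and the 10 genes most like the members. Alternatives covered edgeR (version 4.0.16), limma (version 3.58.1) on log2(TPM + 1) and log2(TPM + 0.1), TMM factors, low-count filters, libraries fitted, blocks for replicate letter and fragment-length class, an effective-length offset, summing of close relatives, a threshold of 0.01 and leaving out each library. Summing Gbp6 with Gbp10 and Gm43302, and Gbp7 with Gm43802, was added after seeing which genes share sequence. The tests were checked on simulated counts. A table of protein sequences was not used here, and some genes of the lists are not reported here.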

Additional observations from a re-analysis of the deposited data

Results flagged for a closer look

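Genes that the naming rule chose from the lists are given here where B64 and B04 differed in the direct comparison (DESeq2, adjusted p under 0.05). Some of them were not named, or were given no value, in the text above. Values are log2 differences, B64 minus B04. Among the GTPase members these were Gbp2 (0.7), Gbp3 (1.05), Gbp6 (1.5), Gbp7 (0.75), Irgm1 (0.52), Irgm2 (1.06) and Igtp (1.16), all higher in B64. Among related GTPases, Gm12250 (2.57) was higher in B64, and 9930111J21Rik1 (-1.15) and 9930111J21Rik2 (-1.54) were lower, as was the atlastin gene Atl3 (-0.22).

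Of the 26 type I-leaning genes that were higher in B64 than in B04, those chosen were Ifit1 (1.82), Irf7 (1.62), Irf9 (0.61), Isg15 (1.19), Usp18 (1.7), Bst2 (0.94) and Stat2 (0.75). In the type II pathway, Jak2 (0.3) and Nlrc5 (0.92) were higher in B64 and Irf1 (-0.58), Cd74 (-1.35) and Psmb8 (-0.48) were higher in B04. Inflammasome partners were Aim2 (1.39), Nlrp3 (0.89), Casp4 (0.65), Ninj1 (0.42) and Gsdmd (-0.44). Among genes of vacuole loading and prenylation these were Gabarapl1 (0.71), Sqstm1 (0.65), Fnta (-0.27) and Rce1 (-0.31).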

How the results depend on the processing

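Of the member counts, 7 in B64 relative to the parental line became 2 with the fragment-length block (log2 fold changes of the 5 others between 0.78 and 2.26) and 4 with limma on log2(TPM + 1) or log2(TPM + 0.1) (7.8% and 7.76% of all genes called), and ranged from 3 to 6 when each library was left out. The 3 in B04 became 5 with edgeR, 0 with the fragment-length block, 0 with limma at either pseudocount and 1 at an adjusted p under 0.01 (18.3% of genes), and ranged from 0 to 2 with a library left out. The 7 in B64 relative to B04 became 4 with limma at either pseudocount (13.2% and 12.9%) and ranged from 5 to 7. Leaving out a library makes the remaining one of its line vary, by assumption, like the other lines. With the replicate block the counts were 6, 2 and 5 (13.7%, 21.9% and 21.7% of genes). Same-letter libraries deviated together at correlations of 0.11, 0.01 and -0.05. These cannot exclude a preparation shared by letter, which was not tested. The median member ratio with the type I-leaning median as reference was 0.02 for B04 minus the parental line and 0.23 for B64 minus B04. The causes were not tested.

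Of values for single genes under alternatives, 521 kept their direction and side of the threshold, 82 lost it, 5 gained it and 19 changed sign. All 19 were small values in B04 relative to the parental line, in genes that were not called: Gbp3 (0.09 with the fragment-length block, 0.07 with the effective-length offset, 0.14 and 0.16 with limma), Gbp5 (0.0 with edgeR, 0.0 with the filter at a mean of 10, 0.03 with the replicate block, 0.19 with the fragment-length block, 0.03 and 0.07 with limma) and Gbp9 (0.16 with the fragment-length block). With each library left out in turn these genes ranged from -0.03 to 0.29 (Gbp2), -0.19 to 0.12 (Gbp3), -0.27 to 0.32 (Gbp5), -0.3 to 1.59 (Gbp6) and -0.43 to 0.16 (Gbp9). Depth limits Gbp5, Gbp6, Gbp9 and Iigp1 most.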

Other observations

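Gvin1, a very large interferon-inducible GTPase gene, was listed at 0 in all 6 libraries. It shared 96.2% of its windows, mostly with Gm4070, a protein-coding gene model on chromosome 7 (105895139 to 105953967). Gm4070 was at 1555.9 and 1263.5 normalized counts in parental replicates A and B, 889.2 and 706.4 in those of B04 and 1470.2 and 1330.0 in those of B64. Its log2 fold change in B04 was -0.82 (SE 0.13, adjusted p = 3.27e-09 in DESeq2), and in B64 it was not called (-0.01, SE 0.13, adjusted p = 0.98). How reads were divided between Gm4070 and Gvin1 was not tested. Gm4070 was looked at because of this shared sequence and not by a fixed rule.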
